A study of Mus musculus with 57 samples.

Results

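The data described here are the RNA-seq libraries of the diaphragm of mouse embryos at E15.5 (days of embryonic age), with and without Hoxa5, and they make up 8 of the 57 libraries of the series. They were chosen by tissue and stage alone, as 4 wild-type (wt) and 4 Hoxa5-/- libraries, and genes entered the comparison when their mean TPM (reads scaled by exon length and library size) was at least 1 in either genotype, which 18019 of 56860 listed genes did. All embryos were of the 129/Sv background, and the mutants carried a null allele on both chromosomes in which a neomycin cassette interrupts the homeobox, so that the exons of the gene can still give reads. The gene is disrupted in every tissue of the embryo, not in the diaphragm alone. Each library is a biological replicate, made from polyA RNA of dissected tissue and read as single ends of 100 bases, and the 8 lung and 8 trachea libraries of the same stage used below were sequenced at the same centre. The study describes its wt means for this tissue as coming from 4 wt embryos. Whether mutant embryos were pooled, or any embryos shared a litter, is not given in the sources used here. The p-values therefore measure the spread between these samples only. The comparison asks which genes change in the diaphragm when Hoxa5 is lost, and to which cells and pathways those genes belong.

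The diaphragm is the muscle of breathing. Its myofibres come from progenitors that leave the cervical somites, its connective tissue and central tendon come from the pleuroperitoneal folds, and it is innervated by the phrenic nerve, whose motor neuron cell bodies lie in the cervical spinal cord. The oesophagus passes through its crural part, the lungs lie on its thoracic face and the liver on its abdominal face. HOXA5 is a homeodomain transcription factor of the HoxA cluster that acts in the mesenchyme of the lung and trachea. It is required for the phrenic motor column and for a normal diaphragm. Within the diaphragm the study places the protein in the pleuroperitoneal folds and what derives from them, and not in muscle cells of somite origin.

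Libraries held from 23163454 to 49532488 counted reads, and a gene with 3 reads in the smallest and in the largest library stood at 0.134 and 0.0598 CPM (counts scaled to library size), the normalised unit used below. CPM values were corrected by TMM factors between 0.97 and 1.03. On the first principal component, with 43.8% of the variance, wt replicate 3 and Hoxa5-/- replicates 3 and 4 lay apart from the other five, while the second, with 23.7%, separated the genotypes. Skeletal muscle markers were high throughout, with Myh3, the embryonic fast myosin, at 2665 to 4031 CPM in wt and 2690.4 to 4108 CPM in Hoxa5-/- libraries and Myog, the regulator of myoblast differentiation, at 508 to 617 CPM in wt and 579 to 761 CPM in Hoxa5-/- libraries, so that all 8 libraries bore out their label. Xist, the transcript of the inactive X chromosome, was high in wt replicate 2 and Hoxa5-/- replicates 2 and 3 and at most 3.54 CPM in the other five.

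Hoxa5 itself was counted at 32.9, 36.5, 47.6 and 31.5 CPM in wt replicates 1 to 4 and 8.09, 11.5, 13.8 and 8.10 CPM in Hoxa5-/- replicates 1 to 4. The lowest wt library lay well above the highest mutant library, and Hoxa5 fell by 1.84 (SE 0.21, adjusted p = 0.00854) in log2 units, a 3.58-fold decrease. Of 18019 genes tested with edgeR's quasi-likelihood test, 107 or 0.594% passed an adjusted p of 0.05 with a change of at least 1.5-fold. The genes lower in Hoxa5-/- libraries numbered 88 (0.488% of those tested) and those higher 19 (0.105%). In all 107 the wt and mutant libraries did not overlap, whereas among all genes tested this was so for 8.03%. The 107 were chosen from these same libraries, so that their separation follows largely from the choice and is no further support. The median log2 fold change of all tested genes was 0.00486.

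The genes that fell were mainly of smooth muscle, neurons, glia and foregut tissue, and those that rose included genes of skeletal muscle fibres. Grouped by the role each is known for, which was done after the calls were seen, 7 genes of smooth muscle, 23 of neurons, 13 of Schwann cells and other glia and 6 of foregut mesenchyme or epithelium fell and none of these groups held a gene that rose. Of 9 genes of skeletal muscle 6 rose and 3 fell. Further groups were 3 genes of the Hox clusters, 2 of endothelium and 5 of secreted signals and their regulators, and 39 called genes were put in no group. Because RNA was taken from whole tissue, fewer cells of a type and less RNA per cell cannot be told apart.

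The number of calls moved with the libraries in the fit, and a smaller design also has less power. Leaving out 1 library gave 30, 40, 134 and 139 called genes for wt replicates 1 to 4, and 30, 32, 52 and 64 for Hoxa5-/- replicates 1 to 4. In these 8 fits, 24 of the 107 genes were called every time, 6 of them higher in mutants, and 4 were never called. Without wt replicates 1 and 2 together, the libraries with the highest levels of oesophageal markers, 4 genes were called in all: Myh11, Ret, Col25a1 and Gm19248. The log2 fold changes of all 107 kept their sign there, at a median of 0.937 times their value with all libraries (range 0.649 to 1.26). As the wt and mutant libraries of these genes did not overlap, leaving out libraries could not reverse a sign, so the kept signs are no check. Without wt replicate 3 and Hoxa5-/- replicates 3 and 4 together, which carried the most liver and erythroid RNA, 103 genes were called and 66 of them were among the 107.

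Smooth muscle genes were among those that fell furthest. Myh11, the smooth muscle myosin heavy chain, was at 212, 313, 79.4 and 114 CPM in wt replicates 1 to 4 and 11.3, 8.09, 5.90 and 10.2 CPM in Hoxa5-/- replicates 1 to 4. Every wt library was at least several times above every mutant library, and among wt libraries replicates 1 and 2 were the highest. Myh11 fell by 4.34 (SE 0.46, adjusted p = 0.00680) in log2 units. Actg2, the enteric smooth muscle gamma actin, was at 96.2, 137, 34.2 and 46.0 CPM in wt and 3.07, 5.597, 1.60 and 2.22 CPM in Hoxa5-/- libraries. It fell by 4.63 (SE 0.56, adjusted p = 0.0121), with the same pair of wt libraries on top.

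Cnn1, which encodes calponin, was at 35.7, 49.0, 13.3 and 19.7 CPM in wt and 3.78, 2.61, 1.92 and 3.64 CPM in Hoxa5-/- libraries and fell by 3.30 (SE 0.43, adjusted p = 0.0152). Myocd, the coactivator of serum response factor that switches on smooth muscle contractile genes, was at 7.14, 10.96, 6.49 and 3.94 CPM in wt and 0.939, 1.04, 1.52 and 0.801 CPM in Hoxa5-/- libraries and fell by 2.73 (SE 0.33, adjusted p = 0.0121). Mylk, the myosin light chain kinase, was at 112, 141, 106 and 69.4 CPM in wt and 31.4, 25.9, 31.2 and 36.3 CPM in Hoxa5-/- libraries and fell by 1.78 (SE 0.20, adjusted p = 0.00854). The wt and mutant libraries did not overlap in any of these genes, and the drop was smaller for Mylk than for the others. Synm and Pde5a, a filament protein and the cyclic GMP phosphodiesterase of smooth muscle, fell by 1.36 and by 0.73.

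Of the 10 genes of the smooth muscle contractile list, all tested, 3 were called lower and none higher, and the list's median log2 fold change was -1.42. Acta2, the actin shared by vascular smooth muscle and young skeletal muscle, was at 605 to 875 CPM in wt and 535 to 722 CPM in Hoxa5-/- libraries, with a log2 fold change of -0.21 (SE 0.14, adjusted p = 0.568). None of the 8 genes for pericytes and vascular smooth muscle was called. Among them Rgs5 had a log2 fold change of -0.99 (SE 0.21, adjusted p = 0.0842) and Kcnj8 one of -0.91 (SE 0.17, adjusted p = 0.0547), and all 8 had negative values, with a median of -0.49. Without wt replicates 1 and 2 the log2 fold change of Myh11 was -3.44 (adjusted p = 0.0402), that of Actg2 -3.67 (adjusted p = 0.0925) and that of Mylk -1.49 (adjusted p = 0.115), so that only the first of these kept its call.

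**Figure D1:**
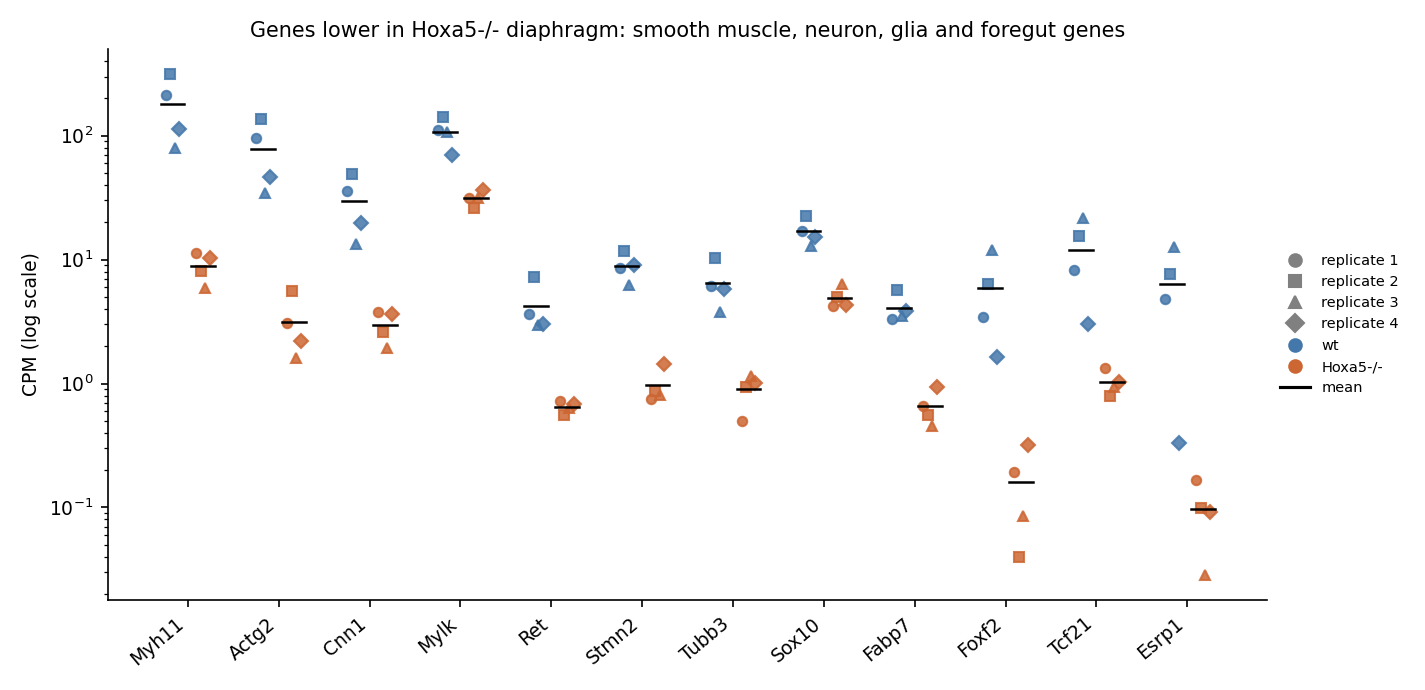
CPM on a log scale of 12 genes that were lower in Hoxa5-/- diaphragm, in each of 4 wt (blue) and 4 Hoxa5-/- (orange) libraries, with marker shapes for replicates 1 to 4 and black lines for the means. The wt and mutant libraries do not overlap in any of these genes, although in Esrp1 wt replicate 4 lies close to the mutants.

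Several genes of neurons fell as well. Ret, the receptor for GDNF on migrating enteric neural crest and on motor neurons, was at 3.61, 7.25, 2.99 and 3.02 CPM in wt replicates 1 to 4 and 0.718, 0.558, 0.630 and 0.686 CPM in Hoxa5-/- replicates 1 to 4 and fell by 2.7 (SE 0.32, adjusted p = 0.0112). Phox2a and Tlx2, transcription factors of autonomic neurons, fell by 2.39 and 4.49.

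Structural genes of neurons followed. Stmn2, a microtubule regulator of growing axons, was at 8.52, 11.8, 6.22 and 9.10 CPM in wt and 0.746, 0.876, 0.802 and 1.44 CPM in Hoxa5-/- libraries and fell by 3.20 (SE 0.27, adjusted p = 0.00321), and it was called in all 8 fits without 1 library. Tubb3, the neuronal beta tubulin, was at 6.16, 10.2, 3.76 and 5.83 CPM in wt and 0.497, 0.936, 1.15 and 1.01 CPM in Hoxa5-/- libraries and fell by 2.85 (SE 0.35, adjusted p = 0.0124). Prph, the peripheral neurofilament peripherin, was at 6.69, 5.35, 2.55 and 5.72 CPM in wt and 1.02, 1.04, 1.12 and 1.46 CPM in Hoxa5-/- libraries and fell by 2.12 (SE 0.29, adjusted p = 0.0199). In each of these genes all mutant libraries were below the lowest wt library, and none of them reached 0. Scg3, L1cam, Ina, Mapt and Celf3, which encode a secretory granule protein, an axonal adhesion molecule, an intermediate filament, tau and a neuronal RNA-binding protein, fell by 2.05 to 3.06.

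In the neuron list, 5 of 13 tested genes were called lower and none higher, with a median log2 fold change of -1.34 and negative values in all 13. Summed over its 16 members, the list stood at 69.5, 91.7, 49.2 and 66.8 CPM in wt replicates 1 to 4 and 26.3, 29.02, 28.1 and 28.6 CPM in Hoxa5-/- replicates 1 to 4. The 4 mutant libraries were nearly equal, and each lay below the lowest wt library. Th, the enzyme of catecholamine synthesis, was at 0.437 to 2.13 CPM in wt and 0 to 0.183 CPM in Hoxa5-/- libraries and had a log2 fold change of -3.81 (SE 0.71, adjusted p = 0.0588).

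Some genes of peripheral glia fell too. Sox10, the transcription factor of neural crest glia, was at 16.9, 22.5, 12.9 and 15.3 CPM in wt replicates 1 to 4 and 4.20, 4.999, 6.30 and 4.28 CPM in Hoxa5-/- replicates 1 to 4 and fell by 1.77 (SE 0.20, adjusted p = 0.00854). Fabp7, a fatty acid binding protein of glial precursors, was at 3.35, 5.70, 3.50 and 3.86 CPM in wt and 0.663, 0.558, 0.458 and 0.938 CPM in Hoxa5-/- libraries and fell by 2.64 (SE 0.27, adjusted p = 0.00680). The groups lay apart in these genes, and both were called in all 8 fits without 1 library.

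Ednrb, the endothelin receptor needed by enteric neural crest and melanoblasts, was at 58.4, 75.1, 67.1 and 53.6 CPM in wt and 32.4, 29.4, 25.6 and 26.2 CPM in Hoxa5-/- libraries and fell by 1.16 (SE 0.12, adjusted p = 0.00680). Gfra3, a coreceptor for artemin, Gpr17, Ttyh1 and Ptprz1 fell by 0.97 to 2.24. Of the 11 genes of the Schwann cell and glia list 4 were called lower and none higher, with a median of -0.43. The summed level of the list was 341 to 409.8 CPM in wt and 331 to 379 CPM in Hoxa5-/- libraries, which overlap.

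Genes of the foregut mesenchyme and of epithelium held some of the largest fitted changes, and their wt libraries spread widely. Foxf2, a forkhead factor of gut and lung mesenchyme, was at 3.44, 6.38, 11.9 and 1.64 CPM in wt replicates 1 to 4 and 0.193, 0.0398, 0.0859 and 0.320 CPM in Hoxa5-/- replicates 1 to 4 and fell by 5.17 (SE 0.77, adjusted p = 0.0263). Tcf21, a helix-loop-helix factor of lung and kidney mesenchyme, was at 8.25, 15.4, 21.5 and 3.02 CPM in wt and 1.33, 0.797, 0.945 and 1.03 CPM in Hoxa5-/- libraries and fell by 3.55 (SE 0.56, adjusted p = 0.0314). Esrp1, the splicing regulator of epithelial cells, was at 4.77, 7.67, 12.54 and 0.333 CPM in wt and 0.166, 0.0996, 0.0286 and 0.0915 CPM in Hoxa5-/- libraries and fell by 5.98 (SE 1.04, adjusted p = 0.0459). In each of them, wt replicate 3 was the highest library and wt replicate 4 the lowest of its genotype, and each was called in at most 2 of the 8 fits without 1 library. Without wt replicate 3 and Hoxa5-/- replicates 3 and 4 the log2 fold change was -5.11 (adjusted p = 0.05004) for Foxf2, -3.08 (adjusted p = 0.133) for Tcf21 and -5.0 (adjusted p = 0.176) for Esrp1.

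Barx1, which patterns the mesenchyme of the stomach and oesophagus, was more even at 5.31, 6.54, 4.30 and 4.30 CPM in wt and 2.43, 2.29, 1.95 and 1.81 CPM in Hoxa5-/- libraries and fell by 1.27 (SE 0.18, adjusted p = 0.0215). Nkx6-1, a homeodomain factor of foregut mesenchyme and of ventral spinal cord, was at 6.42, 11.7, 1.34 and 3.36 CPM in wt and 0.221, 0.199, 0.143 and 0.274 CPM in Hoxa5-/- libraries and fell by 4.73 (SE 0.67, adjusted p = 0.0215). Foxf1, the target of hedgehog signals in gut mesenchyme, was at 10.7, 18.495, 26.7 and 6.33 CPM in wt and 2.57, 2.43, 4.58 and 3.66 CPM in Hoxa5-/- libraries with a log2 fold change of -2.23 (SE 0.43, adjusted p = 0.0696). In the foregut and gut mesenchyme list 3 of 8 tested genes were called lower, none higher, and the median was -1.75.

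Markers of tissues that border the diaphragm differed between single libraries, not only between genotypes. Oesophageal and squamous epithelium markers summed to 259, 350.4, 25.5 and 34.4 CPM in wt replicates 1 to 4 and 45.5, 32.8, 30.1 and 39.3 CPM in Hoxa5-/- replicates 1 to 4. The first pair of wt libraries stood far above the other six. Krt15 and Krt5, keratins of the basal layer of the oesophagus, were at 72.8, 122, 1.34 and 2.997 CPM in wt and 1.05, 0.697, 0.286 and 0.389 CPM in Hoxa5-/- libraries and at 29.4, 44.0, 0.134 and 0.638 CPM in wt and 0.691, 0.438, 0.229 and 0.320 CPM in Hoxa5-/- libraries, and neither was called, at log2 fold changes of -6.35 (SE 1.48, adjusted p = 0.114) for Krt15 and -5.45 (SE 1.54, adjusted p = 0.179) for Krt5. No gene of this list of 13 was called.

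Lung epithelium markers summed to 47.7, 51.2, 241 and 45.7 CPM in wt replicates 1 to 4 and 49.1, 45.6, 58.4 and 51.1 CPM in Hoxa5-/- replicates 1 to 4, with wt replicate 3 alone high. In that library Sftpc, the surfactant protein of alveolar precursors, was at 89.1 CPM and Nkx2-1, the factor of lung and thyroid endoderm, at 43.4 CPM, whereas elsewhere they reached at most 3.34 and 0.483 CPM. None of the 6 tested genes of this list was called. The wider epithelium list summed to 74.7, 103, 273 and 22.7 CPM in wt replicates 1 to 4 and 23.7, 14.1, 73.5 and 54.8 CPM in Hoxa5-/- replicates 1 to 4, and 1 of its 17 tested genes, Esrp1, was called, with all 17 values negative and a median of -3.65. Its defining gene Epcam was at 4.95, 9.38, 33.6 and 0.971 CPM in wt and 1.33, 0.856, 0.974 and 0.755 CPM in Hoxa5-/- libraries, so that wt replicate 4 was near the mutant libraries.

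Liver RNA was present in every library and was high in single libraries of both genotypes. Hepatocyte markers, led by Alb and Afp, summed to 1637, 1404, 8015 and 1815 CPM in wt replicates 1 to 4 and 1957, 339, 10243 and 8756 CPM in Hoxa5-/- replicates 1 to 4. High levels were found in wt replicate 3 and in Hoxa5-/- replicates 3 and 4, the same libraries in which erythroid markers summed to 6691, 7952 and 4946 CPM. No gene of either list was called, although all 17 hepatocyte genes and all 12 tested erythroid genes had positive log2 fold changes. Their medians were 0.76 and 0.41. With the hepatocyte sum as a covariate all 107 genes were called again, among 183 in total.

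**Figure D2:**
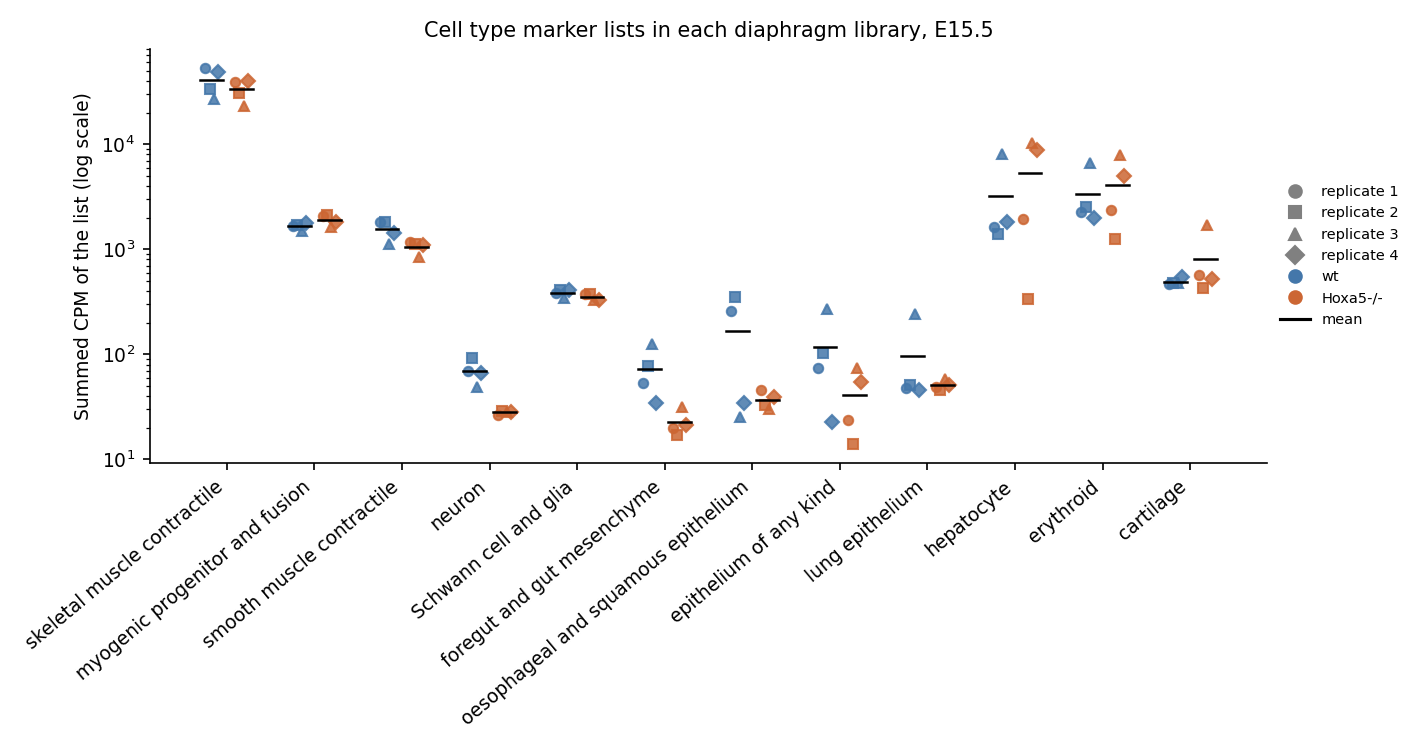
Summed CPM on a log scale of 12 cell type marker lists in each diaphragm library, wt in blue and Hoxa5-/- in orange, with shapes for replicates 1 to 4 and black lines for the means. The neuron list and the foregut and gut mesenchyme list separate the genotypes. The oesophageal list is high in wt replicates 1 and 2 only, and the hepatocyte list in wt replicate 3 and Hoxa5-/- replicates 3 and 4.

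Cartilage markers were raised in Hoxa5-/- replicate 3, where Col2a1, the cartilage collagen, stood at 618 CPM against at most 19.9 CPM in the other seven, and none of the 16 genes of that list was called. The stomach and intestine list summed to 5.93, 8.67, 36.3 and 2.16 CPM in wt replicates 1 to 4 and 3.26, 1.23, 16.4 and 11.3 CPM in Hoxa5-/- replicates 1 to 4, although of its defining genes Cdx2 and Tff2 had at most 0.0446 CPM and Vil1 at most 0.888 CPM. The bone list summed to 25.5 to 33.7 CPM in wt and 26.2 to 37.0 CPM in Hoxa5-/- libraries. The heart muscle list summed to 915 to 1376 CPM in wt and 918 to 1324 CPM in Hoxa5-/- libraries, led by Tnnt2, a troponin that young skeletal muscle also makes, while of its defining genes Nppa, the atrial peptide, had at most 0.0322 CPM and Myl7, the atrial light chain, was at 2.22 to 8.93 CPM in wt and 4.57 to 7.29 CPM in Hoxa5-/- libraries. No gene of these lists was called. The 4 defining genes Ucp1, Adipoq, Ibsp and Nr5a1, of fat, bone and steroid cells, had at most 0.538 CPM. Myh6, the third defining gene of heart, which developing skeletal muscle shares, was at 110.5 to 137 CPM in wt and 94.5 to 134 CPM in Hoxa5-/- libraries.

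The smooth muscle and neuron calls were set beside these lists. With the summed epithelial markers as a covariate, a sum that includes Esrp1 itself, 75 genes were called, 61 of them among the 107. The log2 fold change was then -4.43 (adjusted p = 0.0189) for Myh11, -3.23 (adjusted p = 0.00719) for Stmn2, -1.75 (adjusted p = 0.0230) for Sox10 and -4.10 (adjusted p = 0.0985) for Esrp1. Without wt replicates 1 and 2 it was -2.97 (adjusted p = 0.0822) for Stmn2, -2.20 (adjusted p = 0.0413) for Ret, -1.5 (adjusted p = 0.115) for Sox10 and -1.92 (adjusted p = 0.119) for Hoxa5 itself. With the summed smooth muscle markers as a covariate, chosen after the data had been seen and including Myh11, Actg2 and Cnn1 themselves, 12 genes were called and 11 of them were among the 107. Under it the log2 fold change of Ret was -2.06 (adjusted p = 0.126), that of Sox10 -1.59 (adjusted p = 0.131), that of Padi2 2.58 (adjusted p = 0.0385) and that of Col25a1 1.57 (adjusted p = 0.0285). Over the 88 genes that fell, the highest wt level was in replicate 2 for 45 genes and in replicates 1, 3 and 4 for 19, 16 and 8, and the lowest in replicate 3 for 46. How much tissue of the oesophagus or lung was dissected with each diaphragm was not recorded in the labels, and its part in these differences was not tested.

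Levels in lung and trachea were set beside the same genes. Mean TPM in wt diaphragm was compared with wt lung at E12.5, wt lung at E15.5 and wt trachea, with 0.1 added to each mean. Of the 88 genes that fell, 33 or 37.5% were at least 5 times higher in 1 or more of these tissues, against 4.05% of all genes tested, and 1 of the 19 that rose was, Ankrd1. The highest of the 4 tissue means was in trachea for 59 of the 88, in lung at E15.5 for 13, in lung at E12.5 for 7 and in diaphragm for 9. Foxf2 had 9.15 ± 7.24 TPM (SD, n = 4) in wt diaphragm and 129 ± 18.6 in wt lung, and Stmn2 5.798 ± 1.61 in diaphragm and 58.8 ± 20.9 in trachea. Myh11 had 86.2 ± 52.3 TPM in diaphragm and 207 ± 69.6 in trachea. Somites and brown fat were left out of this comparison. In wt somites at E10.5 the means were 15.2 ± 1.67 TPM for Foxf2, 118 ± 32.9 for Stmn2 and 1.31 ± 0.409 for Myh11.

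The opposite class, genes at least 5 times higher in wt diaphragm than in each of the other tissues, was chosen with the values in view. It held 6 of the 19 genes that rose (31.6%), 3 of the 88 that fell (3.41%) and 3.47% of all genes tested. The risen members were Scn3b, Otog, Ankrd2, Pmaip1, Col19a1 and Gm19866, and the fallen ones Myoz3, Colq and Ufsp1. With 1 TPM added in place of 0.1 it held 3 of the 19 (15.8%), 3 of the 88 and 1.89% of all, and the class higher elsewhere held 28 of the 88 (31.8%) and 2.84% of all. Among the 19 risen genes 13 had their highest mean in diaphragm.

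**Figure D3:**
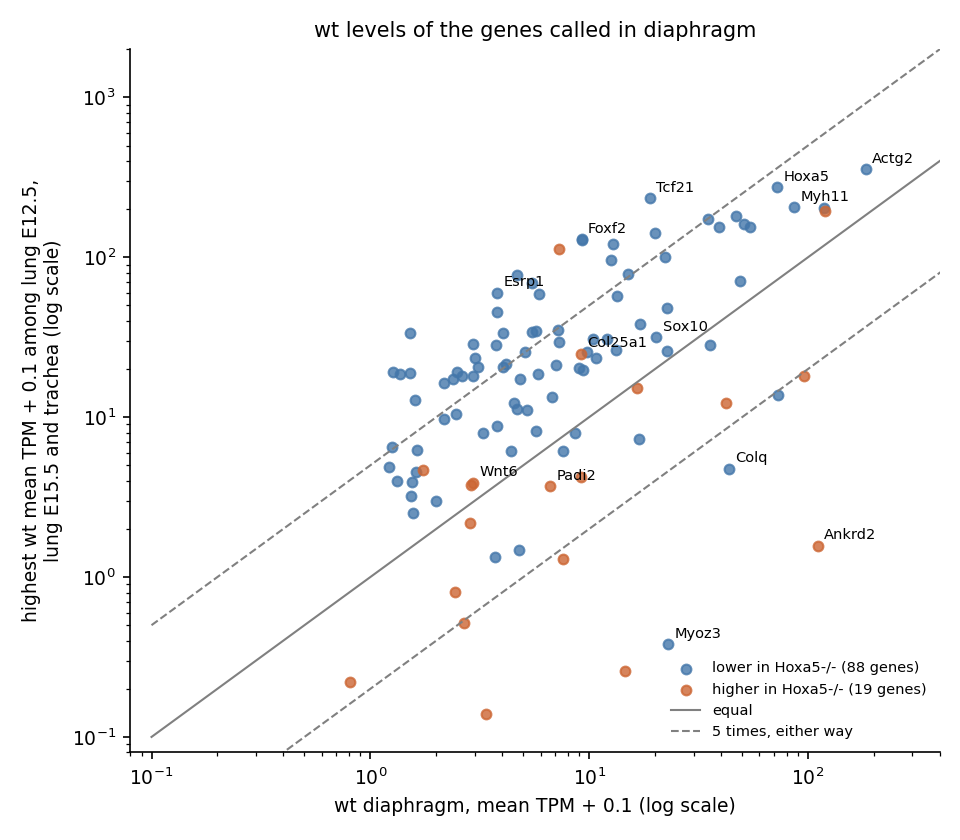
Mean TPM plus 0.1 in wt diaphragm (x axis) against the highest of the wt means in lung at E12.5, lung at E15.5 and trachea (y axis), both on log scales, for the 88 genes lower (blue) and the 19 genes higher (orange) in Hoxa5-/- diaphragm. The solid line marks equal levels and the dashed lines 5 times in either direction, and 33 of the blue and 1 of the orange points lie on or above the upper dashed line.

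Genes of the muscle fibre and of its synapse changed in both directions. Colq, the collagen tail that anchors acetylcholinesterase at the neuromuscular junction, was at 55.9, 38.9, 32.9 and 55.7 CPM in wt replicates 1 to 4 and 20.7, 19.1, 19.2 and 22.1 CPM in Hoxa5-/- replicates 1 to 4 and fell by 1.18 (SE 0.17, adjusted p = 0.0235). Myoz3, a Z-disc protein of fast fibres, was at 29.4, 16.05, 12.8 and 28.9 CPM in wt and 6.91, 5.12, 4.41 and 7.64 CPM in Hoxa5-/- libraries and fell by 1.85 (SE 0.31, adjusted p = 0.0392). Both were below their wt range in all mutant libraries. Ankrd2, a stretch-induced ankyrin repeat protein of slow fibres, was at 37.5, 36.4, 31.5 and 33.7 CPM in wt and 78.6, 63.0, 47.4 and 82.9 CPM in Hoxa5-/- libraries and rose by 0.97 (SE 0.16, adjusted p = 0.0412), and its relative Ankrd1 was at 6.02, 4.99, 5.98 and 5.94 CPM in wt and 11.7, 9.64, 8.71 and 11.3 CPM in Hoxa5-/- libraries and rose by 0.85 (SE 0.12, adjusted p = 0.0249). Scn3b, a beta subunit of sodium channels, was at 144, 149.7, 123 and 159 CPM in wt and 243, 215, 192 and 225 CPM in Hoxa5-/- libraries and rose by 0.61 (SE 0.0955, adjusted p = 0.0322), whereas another, Scn4b, was at 3.35, 2.42, 1.71 and 2.97 CPM in wt and 0.497, 0.239, 0.544 and 0.892 CPM in Hoxa5-/- libraries and fell by 2.26 (SE 0.38, adjusted p = 0.0411).

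In the neuromuscular junction list 1 of 13 genes, Colq, was called, and the median was 0.0775. Several other members differed without passing the adjusted threshold. Chrna1, the alpha subunit of the muscle acetylcholine receptor, was at 89.2, 95.1, 74.4 and 100.5 CPM in wt and 163, 145, 114 and 144 CPM in Hoxa5-/- libraries, with a log2 fold change of 0.66 (SE 0.12, adjusted p = 0.0631). The kinase gene Musk and its activator Dok7 stood at 0.47 (SE 0.10, adjusted p = 0.0900) for Musk and 0.57 (SE 0.11, adjusted p = 0.0641) for Dok7, and Ache, the acetylcholinesterase, at -0.51 (SE 0.0958, adjusted p = 0.0631). Chrng, the fetal gamma subunit, had 0.0806 (SE 0.13, adjusted p = 0.825). DESeq2 gave adjusted p of 0.000108, 0.00221, 0.000253 and 0.000159 for Chrna1, Musk, Dok7 and Ache.

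Structural genes of muscle varied widely among libraries of 1 genotype. None of the 24 genes of the skeletal muscle contractile list was called, and its sum ran from 26857 to 53097 CPM in wt and 23346 to 40154 CPM in Hoxa5-/- libraries. Acta1, the skeletal actin, was at 8082, 3947, 3215 and 6259 CPM in wt and 4666, 3136, 2219 and 5013 CPM in Hoxa5-/- libraries, and Ckm, the muscle creatine kinase, was at 1402, 605, 455 and 1081 CPM in wt and 595, 310.3, 248 and 667 CPM in Hoxa5-/- libraries, so that the groups overlapped in both. With the replicate number as a block in edgeR, Ckm had -0.94 (adjusted p = 0.00526) and Acta1 -0.49 (adjusted p = 0.0363), the latter short of the 1.5-fold minimum. Whether same-numbered libraries are pairs is not given. None of the 16 genes of myogenic progenitors and fusion was called, and Myod1 had a log2 fold change of 0.46 (SE 0.13, adjusted p = 0.179). No gene was called either among 11 tested genes that respond to loss of innervation, 17 of excitation and calcium handling and 8 adult and slow fibre myosins, with medians of 0.14, -0.30 and -0.33.

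The largest rise of a protein-coding gene was that of Padi2, a peptidylarginine deiminase, which converts arginine in proteins to citrulline. It was at 7.54, 8.57, 12.03 and 7.71 CPM in wt replicates 1 to 4 and 70.7, 48.2, 44.2 and 64.4 CPM in Hoxa5-/- replicates 1 to 4. The lowest mutant library was more than 3 times the highest wt library, and Padi2 rose by 2.66 (SE 0.20, adjusted p = 0.00216). Col25a1, a transmembrane collagen of myotubes that motor axons need to enter muscle, was at 28.5, 36.3, 34.8 and 30.3 CPM in wt and 107, 95.8, 86.2 and 86.1 CPM in Hoxa5-/- libraries and rose by 1.53 (SE 0.10, adjusted p = 0.00137). Both were called in all 8 fits without 1 library, and Col25a1 also without wt replicates 1 and 2, with a log2 fold change of 1.54 (adjusted p = 0.0402), where Padi2 had 2.54 (adjusted p = 0.0822).

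Otog, which encodes otogelin, was at 8.83, 9.76, 9.21 and 9.49 CPM in wt and 19.6, 19.998, 16.4 and 16.5 CPM in Hoxa5-/- libraries and rose by 0.96 (SE 0.0932, adjusted p = 0.00584), and Col19a1, a basement membrane collagen of myotubes, was at 4.02, 4.70, 5.44 and 5.30 CPM in wt and 12.6, 12.1, 8.73 and 10.4 CPM in Hoxa5-/- libraries and rose by 1.17 (SE 0.15, adjusted p = 0.0147). Col25a1 and Col19a1 were the 2 called among 39 tested collagen genes, whose median was -0.0905. Wnt6, a ligand of the surface ectoderm and somite, was at 1.52, 2.35, 1.65 and 1.30 CPM in wt and 3.95, 5.04, 3.92 and 3.87 CPM in Hoxa5-/- libraries and rose by 1.30 (SE 0.20, adjusted p = 0.0314). Alx1, a homeodomain factor of craniofacial mesenchyme, Atp13a5, an ATPase of pericytes in brain, and Pmaip1, the apoptosis regulator Noxa, rose by 1.60, 1.91 and 1.10.

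**Figure D4:**
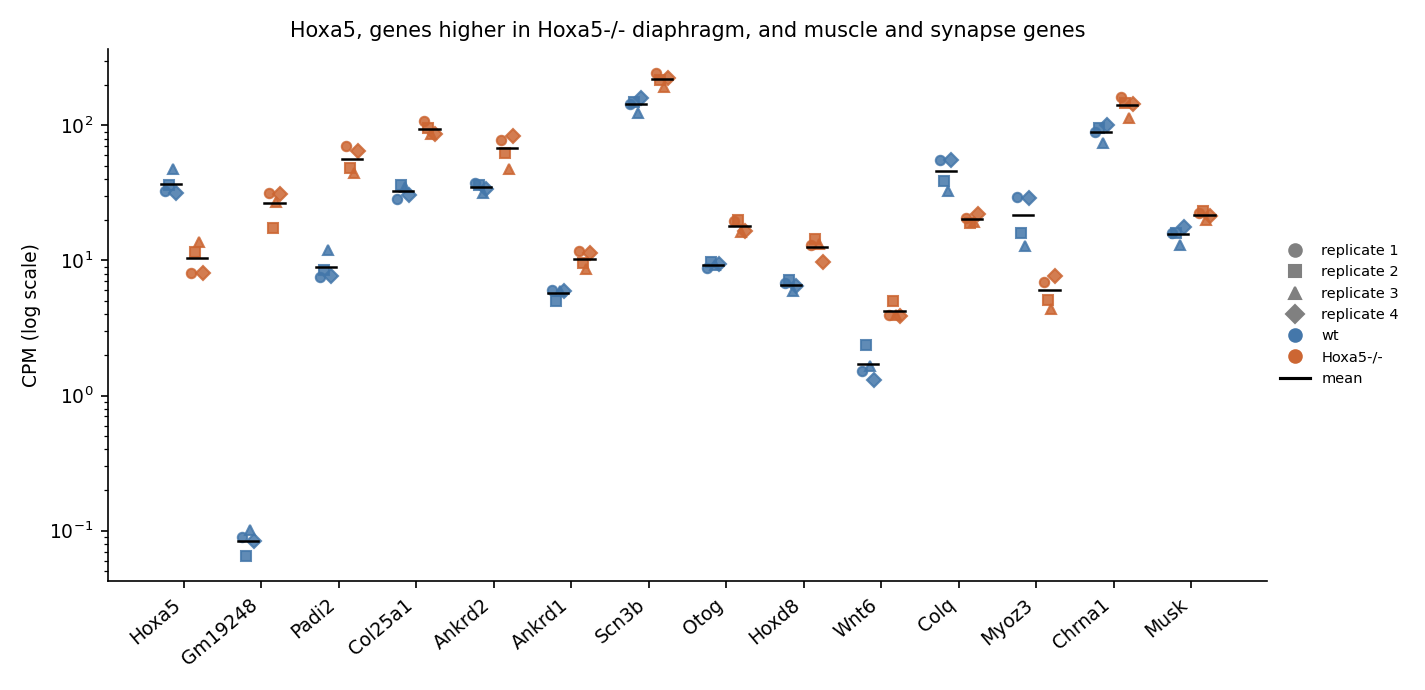
CPM on a log scale of Hoxa5, 9 genes higher in Hoxa5-/- diaphragm, and 4 genes of muscle and its synapse, in each of 4 wt (blue) and 4 Hoxa5-/- (orange) libraries, with shapes for replicates 1 to 4 and black lines for the means. Colq and Myoz3 were lower in mutants, and Chrna1 and Musk, which were not called, have mutant libraries above all wt libraries.

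Promoters of 5 called genes are shown as examples of what the motif search read: Padi2 and Col25a1, the muscle gene Ankrd2, the Hox gene Hoxd8 and the smooth muscle gene Cnn1. They are the 300 bases from 250 before to 50 after the start given by RefSeq on build GRCm38.p6, each written 5′ to 3′ along the gene. Capitals mark 2 motifs searched on both strands: the E-box CANNTG, bound by helix-loop-helix factors such as MyoD, and TAATNA, a core bound by many homeodomain proteins. No marked match overlaps another. The promoters lie at chr4:140906110-140906409 (Padi2), chr3:130180595-130180894 (Col25a1), chr19:42035777-42036076 (Ankrd2), chr2:74704365-74704664 (Hoxd8) and chr9:22099003-22099302 (Cnn1), all on the plus strand.
Padi2: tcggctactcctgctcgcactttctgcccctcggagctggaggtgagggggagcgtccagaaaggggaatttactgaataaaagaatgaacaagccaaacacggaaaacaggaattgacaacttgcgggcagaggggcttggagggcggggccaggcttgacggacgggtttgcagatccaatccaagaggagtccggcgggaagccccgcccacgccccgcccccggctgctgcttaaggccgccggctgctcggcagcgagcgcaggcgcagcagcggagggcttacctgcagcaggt
Col25a1: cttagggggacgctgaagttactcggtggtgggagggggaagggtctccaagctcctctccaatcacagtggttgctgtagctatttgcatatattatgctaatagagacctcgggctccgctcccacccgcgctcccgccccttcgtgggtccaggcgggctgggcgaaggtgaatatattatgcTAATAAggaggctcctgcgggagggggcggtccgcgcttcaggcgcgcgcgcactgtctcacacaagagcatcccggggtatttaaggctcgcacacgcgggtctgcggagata
Ankrd2: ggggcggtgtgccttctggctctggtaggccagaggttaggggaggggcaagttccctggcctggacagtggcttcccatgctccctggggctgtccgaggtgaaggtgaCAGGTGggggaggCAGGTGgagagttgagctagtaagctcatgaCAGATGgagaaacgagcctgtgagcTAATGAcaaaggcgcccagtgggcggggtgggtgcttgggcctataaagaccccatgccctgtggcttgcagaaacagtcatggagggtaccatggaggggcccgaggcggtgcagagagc
Hoxd8: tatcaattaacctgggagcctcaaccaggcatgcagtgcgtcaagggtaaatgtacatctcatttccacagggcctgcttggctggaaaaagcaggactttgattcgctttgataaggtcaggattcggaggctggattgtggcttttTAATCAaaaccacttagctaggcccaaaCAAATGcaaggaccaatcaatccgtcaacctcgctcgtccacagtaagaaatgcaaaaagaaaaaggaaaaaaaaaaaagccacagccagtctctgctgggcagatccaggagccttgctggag
Cnn1: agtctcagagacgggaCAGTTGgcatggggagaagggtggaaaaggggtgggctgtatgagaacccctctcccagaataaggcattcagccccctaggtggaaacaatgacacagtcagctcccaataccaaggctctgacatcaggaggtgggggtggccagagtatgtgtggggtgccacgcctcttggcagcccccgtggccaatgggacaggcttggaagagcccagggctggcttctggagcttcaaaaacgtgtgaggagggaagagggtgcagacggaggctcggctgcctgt
Ankrd2 held 3 E-boxes and 1 TAATNA, Hoxd8 1 of each, Col25a1 1 TAATNA, Cnn1 1 E-box and Padi2 neither. RefSeq promoters were matched for 13 of the 19 risen genes (15 promoters) and 55 of the 88 fallen genes (68 promoters). TAATNA was in 33.3% of the promoters of risen genes, 7.4% of those of fallen genes and 26.4% of all 32544 promoters, and the E-box in 86.7%, 60.3% and 72.3%. The CArG box, to which serum response factor binds in smooth muscle genes, was in none of the 83 promoters of called genes and in 1.6% of all. Of the smooth muscle genes, Cnn1, Mylk, Synm and Pde5a were among those searched, and Actg2, Myh11 and Myocd were not. These matches are a description of letters in a window and were not tested.

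Gm19248 had the largest change of all in diaphragm, and the study reports it as changed in lung and trachea of this stage too. In diaphragm it was at 0.0892, 0.0644, 0.101 and 0.0832 CPM in wt replicates 1 to 4 and 31.7, 17.3, 26.9 and 31.2 CPM in Hoxa5-/- replicates 1 to 4. The wt libraries together held 10 reads and the mutant libraries 4322, a ratio of library-scaled reads of 312.3 with a 95% interval from 169.6 to 651.6 that covers counting error only. The fitted log2 fold change was 8.26 (SE 0.29, adjusted p = 1.21e-05). The gene is a processed pseudogene of Tmsb10, an actin-sequestering peptide, and its single exon covers chr7:46616996-46617105 on the plus strand of GRCm39. It is printed with the stretch of a Tmsb10 transcript (bases 445 to 554, GENCODE vM39) that matched it best. Of 110 bases 102 are the same, and the longest identical run, 54 bases, is shorter than a read of 100 bases. Capitals mark the 8 bases that differ.
Gm19248: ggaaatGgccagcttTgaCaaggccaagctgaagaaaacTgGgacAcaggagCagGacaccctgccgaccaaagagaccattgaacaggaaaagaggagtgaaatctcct
Tmsb10: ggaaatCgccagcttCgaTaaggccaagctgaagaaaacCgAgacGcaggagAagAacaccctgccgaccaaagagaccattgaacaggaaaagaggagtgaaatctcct
Counted from 1 at the 5′ end with the base of Tmsb10 first, the substitutions are C7G, C16T, T19C, C40T, A42G, G46A, A53C and A56G, and the last 54 bases are identical. Tmsb10 itself was at 363 to 431 CPM in wt and 381 to 503 CPM in Hoxa5-/- libraries, with a log2 fold change of 0.0200 (SE 0.10, adjusted p = 0.949). Per the methods, reads with a unique place in the genome were used. A full read of 100 bases inside the exon spans bases that differ from Tmsb10. How trimmed reads, or reads that reach past the exon, were divided between the pseudogene and its parent was not tested. To that extent the level of Gm19248 is uncertain.

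Among the Hox genes, 22 were tested, 1 was called higher, 1 lower, and the median log2 fold change was -0.00223. Hoxd8 was at 6.78, 7.15, 5.98 and 6.44 CPM in wt replicates 1 to 4 and 12.98, 14.4, 13.2 and 9.81 CPM in Hoxa5-/- replicates 1 to 4 and rose by 0.94 (SE 0.13, adjusted p = 0.0203). Hoxaas2 is a long noncoding RNA of the HoxA cluster whose lower coordinate lies 36080 bases from that of Hoxa5. It was at 7.63, 9.31, 7.36 and 8.32 CPM in wt and 5.17, 5.50, 4.58 and 4.83 CPM in Hoxa5-/- libraries and fell by 0.70 (SE 0.11, adjusted p = 0.0381). Hoxa4 and Hoxa3 were not called, at log2 fold changes of -0.75 (SE 0.17, adjusted p = 0.101) for Hoxa4 and -0.54 (SE 0.13, adjusted p = 0.116) for Hoxa3. Hoxc8 was at 1.205, 0.773, 1.34 and 1.53 CPM in wt and 2.04, 3.03, 9.25 and 1.81 CPM in Hoxa5-/- libraries, high in Hoxa5-/- replicate 3, with 1.72 (SE 0.54, adjusted p = 0.220). DESeq2 gave adjusted p of 0.00261, 0.00525 and 0.0290 for Hoxa4, Hoxa3 and Hoxc8, and put 6 of the 22 Hox genes under 0.05.

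Other called genes lay near one another, with starts within 500 kb (GRCm39). Start here means the lower coordinate of a gene, whichever its strand, and not the start of transcription. On chromosome 13 Id4, Barx1 and Wnk2, all lower in mutants, start at 48414704, 48816474 and 49189779. On chromosome 6 Tlx2 and Actg2 start 444582 bases apart and fell by 4.49 and 4.63. Ankrd2 rose and Sfrp5, a secreted Wnt inhibitor 161971 bases away on chromosome 19, fell by 2.54. Gm42837 lies inside Col25a1 and rose with it, Gpr17 lies inside Lims2 and fell with it, and Gm9899 and Kcnk3 overlap and both fell, so that the reads of each pair cannot be told apart where the strand was not used in counting. The other pairs were Sox10 with Gm10863 and Sstr4 with Thbd, all lower in mutants.

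The signalling lists held few calls. Slit3, a guidance ligand for axons whose loss causes diaphragmatic hernia, was at 37.3, 46.8, 36.9 and 25.2 CPM in wt replicates 1 to 4 and 18.3, 17.3, 20.1 and 18.96 CPM in Hoxa5-/- replicates 1 to 4 and fell by 0.97 (SE 0.16, adjusted p = 0.0412). It was the 1 called gene of 28 linked to congenital diaphragmatic hernia and of 35 tested genes of axon guidance, where Ntn1 had a log2 fold change of -1.06 (SE 0.23, adjusted p = 0.0903) and Nrp2 -0.46 (SE 0.0742, adjusted p = 0.0382), the latter short of the 1.5-fold minimum. Ret was the 1 called gene of 21 for neurotrophic and motor axon signals. In the Wnt list Wnt6 rose and Sfrp5 fell among 31, and in the BMP list Id4, an inhibitor of helix-loop-helix factors, was the 1 called of 27, at -1.18.

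No gene was called among 24 tested genes of FGF, 15 of hedgehog, 15 of Notch and 18 of retinoic acid signalling, 22 of the cell cycle, 19 of the immediate early response, 18 of hypoxia and glycolysis and 9 of heat shock. Nor was any among markers of muscle connective tissue (13 tested), tendon (10), mesothelium (11), lymphatic endothelium (8), macrophages (13) and fat (8). Their median log2 fold changes ran from -0.35 in the immediate early response to 0.20 in heat shock. The absence of calls does not show that these genes are unchanged. In edgeR an unadjusted p under 0.05 was found for 8 of 15 hedgehog, 7 of 15 Notch and 5 of 10 tendon genes. It was found for 4 of 24 FGF genes, 0 of 22 cell cycle genes and 13.03% of all genes tested. DESeq2 put 5 hedgehog genes and 1 Notch gene under an adjusted p of 0.05.

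Endothelial genes had mostly negative values, without a call in the list. Of 16 blood endothelium genes 15 had negative log2 fold changes, with a median of -0.39, 14 had an unadjusted p under 0.05, as did 13.03% of all genes tested, and none was called. Tek, the angiopoietin receptor, was at 28.6, 24.3, 26.6 and 22.8 CPM in wt and 19.1, 18.4, 15.3 and 17.1 CPM in Hoxa5-/- libraries, with a log2 fold change of -0.55 (SE 0.0973, adjusted p = 0.0506), and Ptprb, a phosphatase acting on it, had -0.60 (SE 0.13, adjusted p = 0.10). Gja5, the connexin of arteries, was at 27.5, 29.4, 31.4 and 26.1 CPM in wt and 52.8, 78.2, 57.0 and 39.5 CPM in Hoxa5-/- libraries, with 0.99 (SE 0.18, adjusted p = 0.0565). DESeq2 gave adjusted p of 5.83e-05, 0.00234 and 1.35e-05 for Tek, Ptprb and Gja5, and put 9 of the 16 list genes under 0.05. Outside the list Thbd, thrombomodulin, was at 44.6, 46.0, 57.8 and 42.8 CPM in wt and 22.3, 19.3, 14.4 and 22.1 CPM in Hoxa5-/- libraries and fell by 1.29 (SE 0.15, adjusted p = 0.0110), and Acvrl1, the endothelial receptor for BMP9, fell by 0.95 (SE 0.16, adjusted p = 0.0412).

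Several called genes of secreted signals or of no group fell as well. Rgs2, a regulator of G protein signals, was at 54.0, 47.4, 38.2 and 55.9 CPM in wt replicates 1 to 4 and 18.48, 18.7, 19.4 and 18.6 CPM in Hoxa5-/- replicates 1 to 4 and fell by 1.38 (SE 0.11, adjusted p = 0.00249). Its mutant libraries were nearly equal and far below the lowest wt library. Wnk2, a kinase of ion transport, was at 56.5, 53.2, 45.2 and 56.8 CPM in wt and 26.2, 26.9, 25.3 and 26.1 CPM in Hoxa5-/- libraries and fell by 1.02 (SE 0.0768, adjusted p = 0.00216). Kcnk3, an acid-sensitive potassium channel, was at 7.32, 8.15, 8.74 and 6.88 CPM in wt and 2.51, 1.59, 0.916 and 2.36 CPM in Hoxa5-/- libraries and fell by 2.07 (SE 0.29, adjusted p = 0.0199), and Cxcl13, a chemokine for B cells, was at 4.77, 4.16, 3.50 and 3.41 CPM in wt and 0.691, 0.916, 0.401 and 1.40 CPM in Hoxa5-/- libraries and fell by 2.20 (SE 0.33, adjusted p = 0.0274). Rgs2 and Wnk2 were called in all 8 fits without 1 library.

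The effect in diaphragm was set against that in lung and trachea of the same stage, with a test of the difference for each gene. Against lung, 142 of 19463 genes (0.73%) passed an adjusted p of 0.05, and 66 of the 107 called genes were among them, 61 that fell and 5 that rose. Against trachea, 89 of 20289 genes (0.439%) passed, with 50 of the 107, 48 that fell and 2 that rose, and 43 genes passed both. The diaphragm libraries that chose the 107 genes also enter these tests, so the shares are a description. With 1 library left out the count against lung ran from 63 (without lung wt replicate 2) to 222 (without diaphragm wt replicate 4), and that against trachea from 49 (without diaphragm Hoxa5-/- replicate 1 or 2) to 176 (without diaphragm wt replicate 4).

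Myh11 had a log2 fold change of 0.20 (SE 0.12, adjusted p = 0.890) in lung and -0.21 (SE 0.28, adjusted p = 0.863) in trachea, and its effect in diaphragm differed from lung by -4.55 (SE 0.47, adjusted p = 0.000552) and from trachea by -4.10 (SE 0.55, adjusted p = 0.00415). Stmn2 had 0.13 (SE 0.40, adjusted p = 0.985) in lung and 0.0978 (SE 0.29, adjusted p = 0.942) in trachea, with differences of -3.33 (SE 0.54, adjusted p = 0.0101) from lung and -3.27 (SE 0.43, adjusted p = 0.00367) from trachea. For Sox10 the differences were -2.19 (SE 0.37, adjusted p = 0.0126) from lung and -2.26 (SE 0.27, adjusted p = 0.00192) from trachea. At E15.5 the wt means of Myh11 in lung and trachea were 145 ± 26.1 and 207 ± 69.6 TPM (SD, n = 4).

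Col25a1 had -0.0683 (SE 0.0854, adjusted p = 0.947) in lung and -0.00637 (SE 0.19, adjusted p = 0.995) in trachea, and the diaphragm differed by 1.59 (SE 0.14, adjusted p = 0.000202) from lung and 1.56 (SE 0.23, adjusted p = 0.00705) from trachea. Padi2 differed from lung by 2.31 (SE 0.26, adjusted p = 0.000956) and from trachea by 2.10 (SE 0.45, adjusted p = 0.0525), the second short of the threshold. For Colq, which was below 1 TPM in lung, the difference from trachea was -1.82 (SE 0.33, adjusted p = 0.0216). Hoxa5 itself differed by -0.00336 (SE 0.21, adjusted p = 0.99996) from lung and -0.12 (SE 0.28, adjusted p = 0.960) from trachea, where it had changes of -1.85 (SE 0.0748, adjusted p = 1.16e-05) for lung and -1.71 (SE 0.18, adjusted p = 0.0475) for trachea.

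**Figure D5:**
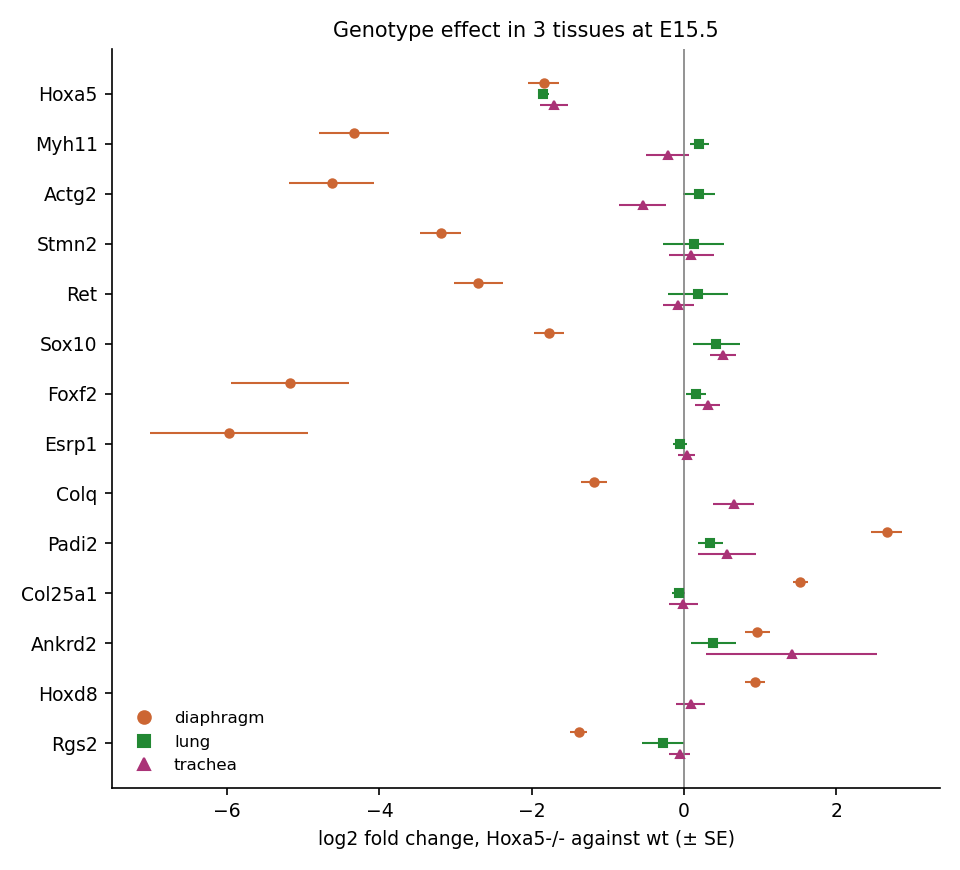
Log2 fold change of Hoxa5-/- against wt libraries with its SE for 14 genes in diaphragm (circles), lung (squares) and trachea (triangles) at E15.5, each from 4 wt and 4 mutant libraries. The smooth muscle, neuron, glia and foregut genes lie far below 0 in diaphragm and between -0.54 and 0.51 elsewhere, and Colq and Hoxd8 have no point in lung, where they were not tested.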

How the data were processed

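RNA-seq was analysed for 4 wt and 4 Hoxa5-/- diaphragms at E15.5, with lung and trachea of that stage for contrast. According to the methods and processing notes, trimming by the authors used Trim Galore 0.6.5, mapping to GRCm39 used STAR 2.7.9a, and reads per gene came from featureCounts 2.0.3; the strand setting is not given in the sources used here. The deposited count tables hold whole reads per gene without normalization, and the deposited TPM tables, also by the authors, divide those counts by exon length. Samples were grouped from their labels.

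Here, edgeR 4.0.16 (R 4.3.3) fitted the counts with TMM factors and the quasi-likelihood test, two-sided, on genes whose mean TPM reached 1 in wt or mutant libraries. A call needed a Benjamini-Hochberg adjusted p under 0.05 and a 1.5-fold change; differences between tissues were interaction terms without a fold minimum. SE is the log2 fold change divided by the square root of F. DESeq2 1.42.0, other filters, covariates and left-out libraries were alternatives. Both tools were tested on simulated data. The rule for naming took Hoxa5, Gm19248, Xist, the 15 largest rises and 15 largest falls, called genes of the lists, defining markers, the 3 highest members per list and called neighbours within 500 kb; other names were chosen after their values were seen, and some genes under the rule are not reported here. Promoters came from RefSeq (GRCm38.p6). Members and lists (25 of markers, 20 of pathways) were chosen with earlier results of these data known. Figures used matplotlib 3.10.9. Counting intervals cover counting error only.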

Additional observations from a re-analysis of the deposited data

Results flagged for a closer look

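Among the 4 libraries of a genotype, a library was picked out when its gap to the nearest other, divided by the range of the 4, exceeded Dixon's critical value for 4 samples, which chance passes in about 1 of 20 groups. Many groups were screened, marker lists and named called genes in each genotype, so that some flags would arise by chance. In wt replicate 3 this ratio was 0.875 for the summed lymphatic endothelium markers, 0.879 for erythroid, 0.938 for hepatocyte and 0.972 for lung epithelium markers, with sums of 279, 6691, 8015 and 240.5 CPM. Summed cartilage markers stood apart in wt replicate 4 (ratio 0.834, 546 CPM) and in Hoxa5-/- replicate 3 (ratio 0.892, 1706 CPM). Of the called genes named, Wnt6 was apart in Hoxa5-/- replicate 2 (ratio 0.927, 5.04 CPM) and Ret in wt replicate 2 (ratio 0.854, 7.25 CPM).

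The effect of genotype differed between diaphragm and lung in 142 genes and between diaphragm and trachea in 89, by edgeR's interaction test. Among genes named, the log2 effect in diaphragm minus that in lung was -4.55 for Myh11, -4.83 for Actg2, -3.33 for Stmn2, -2.90 for Ret, -2.19 for Sox10, -5.35 for Foxf2, -5.92 for Esrp1, 2.31 for Padi2 and 1.59 for Col25a1. Against trachea it was -4.10 for Myh11, -4.07 for Actg2, -3.27 for Stmn2, -2.61 for Ret, -2.26 for Sox10, -5.46 for Foxf2, -5.98 for Esrp1, 1.56 for Col25a1, -1.82 for Colq and -1.30 for Rgs2.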

How the results depend on the processing

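The number of genes called in diaphragm, 107 with 19 higher and 88 lower, moved with the settings. It was 406 (58 higher, 348 lower) by DESeq2, 196 (29 and 167) without a filter on low values, 63 (15 and 48) with a mean TPM of at least 5, 355 (28 and 327) when all libraries of the table shared 1 fit, 183 (40 and 143) with the hepatocyte sum as a covariate, and 12 higher with the epithelial sum. Leaving out each library in turn gave from 30 to 139 genes, 6 to 14 of them higher and 23 to 125 lower. Chosen after the data had been seen, leaving out wt replicates 1 and 2 together gave 4 (2 higher, 2 lower), leaving out wt replicates 1, 2 and 3 gave 3 (1 and 2), and the smooth muscle sum as a covariate gave 12 (5 and 7). Size factors from DESeq2, a minimum of 10 counts in 4 libraries, no fold change minimum and Xist as a covariate kept the count within 1.5 times. No called gene changed sign under any of these settings, and all 107 were called by DESeq2. With libraries left out the sign could not change, because the wt and mutant libraries of the called genes did not overlap. With the mean TPM of at least 5, 62 of the 66 of these genes that were tested were called, and with Xist as a covariate 82. Genes whose effect differed from lung numbered 314 by DESeq2 and 63 to 222 with 1 library left out, and from trachea 378 and 49 to 176. With 1 TPM added in place of 0.1, the class at least 5 times higher elsewhere held 2.84% of all genes tested. The class at least 5 times higher in diaphragm held 1.89% of them and 3 of the 19 risen genes. The cause of these shifts was not tested. At these depths a gene with 3 reads was below 0.14 CPM in every library, and Gm19248 in wt libraries had no more reads than that.

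The labels give both genotypes replicate numbers 1 to 4 and do not say whether same-numbered libraries are pairs. Deviations of same-numbered diaphragm libraries correlated at 0.46, 0.46, 0.63 and -0.05, so that pairing is unresolved. With the replicate number as a block 358 genes were called (47 higher, 311 lower), all 107 among them, and the differences from lung and trachea numbered 438 and 182. Ckm and Acta1, not called without the block, had log2 fold changes of -0.94 (adjusted p = 0.00526) and -0.49 (adjusted p = 0.0363) with it, the latter short of the 1.5-fold minimum. Replicates 1, 2 and 3 of wt each correlated best with the mutant library of the same number, whereas wt replicate 4 did so with Hoxa5-/- replicate 1.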
